A study of Mus musculus with 12 samples.

Results

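The genes described here encode the basement membrane and the extracellular matrix of the mouse retina. They were 35 genes chosen by symbol among the 54532 gene identifiers of the count and FPKM tables, and every symbol matched 1 identifier. They comprised the 6 chains of type IV collagen, the 2 multiplexin collagens, 8 laminin chains, 4 linkers and heparan sulfate proteoglycans, the collagen-binding protein Sparc, 3 genes of fibronectin and the fibrillins, 9 genes of the interstitial matrix and 2 collagens of the vitreous. Retinal RNA had been sequenced from 4 groups with 3 libraries each, 12 libraries in all. All mice were wild type C57BL/6, 13 weeks of age at collection, and the study's methods describe the mice of the experiments as female. The SHAM group was the sham control, whose exact treatment the labels do not give. The MOG group was immunized with the MOG35-55 peptide of myelin oligodendrocyte glycoprotein in complete Freund's adjuvant with pertussis toxin, which produces experimental autoimmune encephalomyelitis with optic neuritis. The GB20 group was immunized in the same way and needled at the acupoint GB20 from 3 weeks after immunization, every 3 days for 2 weeks, and the GV16 group was needled at the control site GV16 on that schedule. Both needled groups also received xylazine and ketamine anaesthesia, which is not described for the MOG group, so that needling and anaesthesia cannot be told apart against MOG. The methods name groups of 2 or 3 mice and repeated experiments, and do not say whether the retinas of several mice were pooled in a library.

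A basement membrane is a sheet of extracellular matrix in which a laminin network, made of trimers of an alpha, a beta and a gamma chain, is joined to a network of type IV collagen by nidogens and heparan sulfate proteoglycans such as perlecan and agrin. In the retina such sheets lie under the endothelium of the vessels, at the inner limiting membrane that faces the vitreous, and in Bruch's membrane under the pigment epithelium. Fibrillins build microfibrils, and fibronectin, tenascin, versican and the fibrillar collagens belong to the matrix between cells.

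Total counts per library ranged from 15860278 to 19194280. CPM values serve to compare libraries for 1 gene. They are the deposited counts scaled to the effective size of each library. That size is the total over genes kept by the filter on low counts, multiplied by the library's TMM normalization factor. The deposited FPKM values, which also divide by gene length, serve to compare genes. Gnat1, the transducin subunit of rods and a defining marker of the labelled tissue, was between 8992 and 11003 CPM in every library. Retinal ganglion cell markers summed to 999 to 1129 CPM in SHAM and 589 to 703 CPM in MOG, and 12 of 15 fell in MOG (edgeR's quasi-likelihood fit, p adjusted over all genes by Benjamini-Hochberg). Lens markers summed to 21.6 CPM in SHAM replicate 2 and 12.2 CPM in GB20 replicate 2. In the other 10 libraries they summed to at most 3.54 CPM. Markers of fibroblasts and sclera summed to between 16.3 and 22.8 CPM, and those of erythrocytes to between 6.75 and 13.4 CPM, over all libraries. In bulk RNA, fewer cells of a type and less RNA per cell cannot be told apart.

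Transcript levels differed widely among the matrix genes. Sparc, a collagen-binding protein that chaperones type IV collagen, had the highest level at 35.5 ± 3.46 FPKM (SD over 12 libraries). Agrn, which encodes the heparan sulfate proteoglycan agrin, followed at 14.5 ± 1.80 FPKM, and the vitreous collagen genes Col9a1 and Col2a1 had 8.52 ± 1.46 and 6.51 ± 1.05 FPKM. Col4a1 had 5.60 ± 1.08 FPKM and Col4a2 4.68 ± 0.814 FPKM, and the spread of each overlapped that of the neighbours in this order from Col9a1 to Fn1 at 3.54 ± 0.404 FPKM. The laminin chains with the highest level of their kind were Lamc1 at 3.23 ± 0.271, Lamb2 at 2.60 ± 0.259 and Lama5 at 2.43 ± 0.432 FPKM. Among the genes of the interstitial matrix, Tnc had 1.91 ± 0.257 FPKM. Lower were Col1a1 at 0.242 ± 0.0571 FPKM, Col3a1 at 0.0291 ± 0.0216 FPKM and the small proteoglycan gene Dcn at 0.0575 ± 0.0373 FPKM. Some basement membrane genes were also low, among them Nid2 at 0.212 ± 0.0661 FPKM and Lama2 at 0.118 ± 0.0424 FPKM. Lum, the keratan sulfate proteoglycan of cornea and sclera, had 0 counts in all 12 libraries. For counting error alone this allows up to 3 counts per library, or 0.156 to 0.189 CPM if scaled to the total of each library. After the filter on low counts 32 genes could be tested, since Dcn, Lum and Col3a1 had too few counts.

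**Figure D1:**
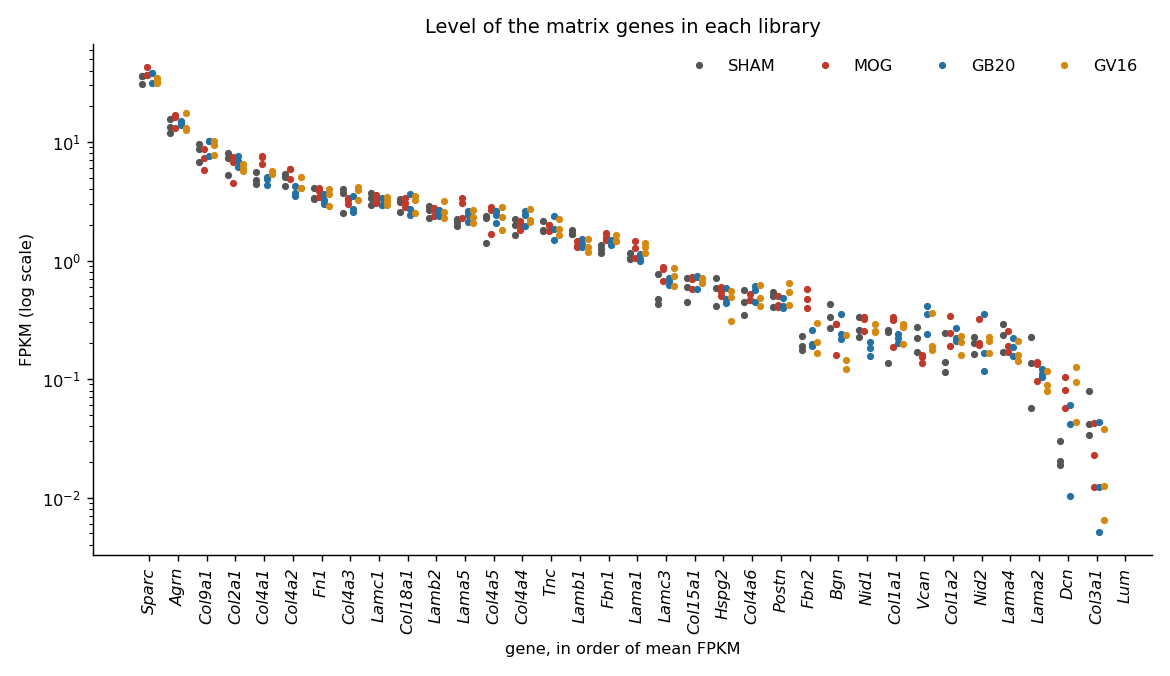
Level of each of the 35 matrix genes in FPKM on a log scale, in order of the mean over 12 libraries, with 1 point per library coloured by group. Sparc and Agrn stand above the other genes in every library, and values of 0, among them all of Lum, cannot be drawn on this scale.

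Immunization was examined by comparing MOG with SHAM. Of the 32 genes tested, 2 rose (Col4a1 and Fbn2) and none fell, where 0.568% of all 18299 genes tested rose at an adjusted p under 0.05. The log2 fold changes of the 32 genes had a median of 0.08 and 20 were above 0, against a median of -0.00 over all genes. With a correction for gene length the median was 0.035, against -0.014 over all genes. The MOG libraries all lay above the SHAM libraries for 5 genes (Col4a1, Lama5, Sparc, Fbn1 and Fbn2), where 7.87% of all genes did so, and all below for 2 (Lamb1 and Vcan), where 8.34% did so.

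Needling was examined by comparing GB20 and GV16 with MOG. These comparisons share the MOG libraries with each other and with the comparison against SHAM, so that a high value in MOG enters all of them. In GB20, 3 genes fell (Col4a1, Col4a2 and Fbn2) and none rose, where 0.142% of all genes fell. The median log2 fold change was -0.12 and 8 of 32 were above 0, against a median of 0.00 over all genes. With a correction for gene length the median was smaller in size, at -0.051 against 0.008 over all genes. GB20 libraries lay apart from MOG upward for 1 gene (Vcan, 7.96% of all genes) and downward for 4 (Col4a1, Col4a2, Nid1 and Fbn2, 7.71% of all genes). In GV16, 1 gene fell (Fbn2), where 0.0984% of all genes fell, with a median of -0.08 and 9 of 32 above 0. The length-corrected median in GV16 was -0.059, against 0.014 over all genes. GV16 libraries lay apart from MOG upward for 1 gene (Vcan, 6.17% of all genes) and downward for 3 (Col4a1, Sparc and Fbn2, 6.45% of all genes).

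The remaining comparisons called 0 of the 32 genes by edgeR and by DESeq2 fitted to 12 libraries. Over all genes, 0.00546% were called between GB20 and GV16, 0.344% between GB20 and SHAM and 0.656% between GV16 and SHAM. An unadjusted p under 0.05 was found between GB20 and GV16, the test of a difference between the needling sites, for 4 of the 32 (Col4a1, Col4a3, Lama1 and Bgn) and 2.93% of all genes. Between GB20 and SHAM it was found for 4 (Col4a2, Lamb1, Nid1 and Vcan) and 9.06% of all genes, and between GV16 and SHAM for 3 (Lamb1, Fbn1 and Bgn) and 10.9% of all genes.

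**Figure D2:**
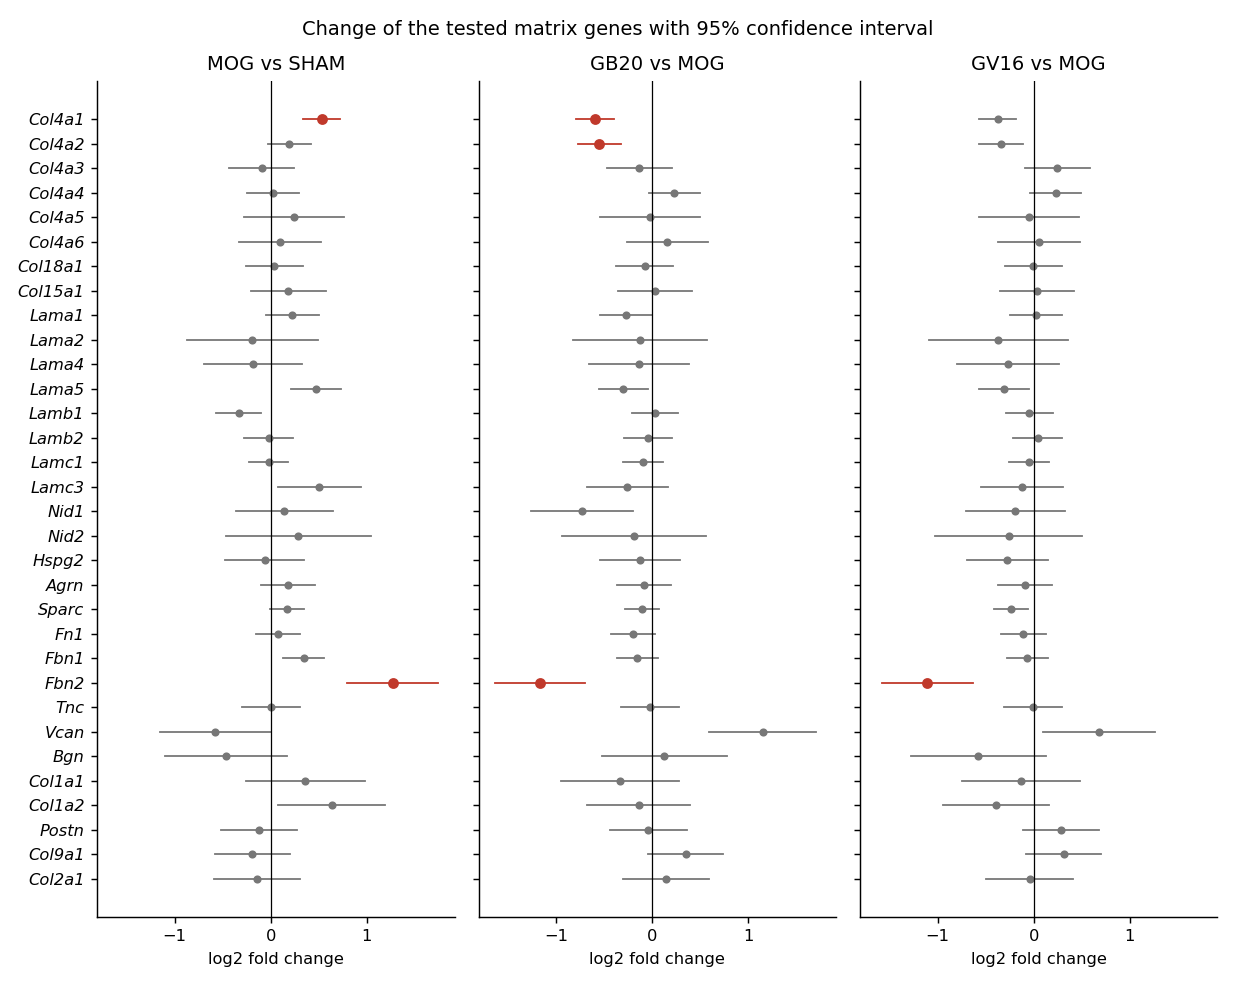
Log2 fold change of the 32 tested matrix genes (points) with its 95% confidence interval (lines) for MOG against SHAM and for each needled group against MOG, with the genes called at an adjusted p under 0.05 in red. The called genes are Col4a1 and Fbn2 in the first panel, Col4a1, Col4a2 and Fbn2 in the second and Fbn2 in the third.

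Col4a1 and Col4a2 encode the chains that form the common type IV collagen of basement membranes, as trimers that join alpha 1 and alpha 2 chains. The genes (ENSMUSG00000031502 and ENSMUSG00000031503) lie head to head on mouse chromosome 8 of GRCm38, Col4a1 on the minus strand at 11198423 to 11312826 and Col4a2 on the plus strand at 11312805 to 11449287, so that their annotated first exons overlap by 22 bases. Col4a3 and Col4a4 form a second such pair on chromosome 1, with a gap of 71 bases between them, and Col4a5 and Col4a6 another on the X chromosome. The sequences that separate or join the starts of the first and second pair are shown on the plus strand of GRCm38.p6 from RefSeq, because only the first pair held called genes. Capitals mark a GC box, GGGCGG or its reverse complement CCGCCC.
Overlap of Col4a1 and Col4a2, chr8:11312805-11312826: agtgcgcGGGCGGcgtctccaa
Gap between Col4a4 and Col4a3, chr1:82586850-82586920: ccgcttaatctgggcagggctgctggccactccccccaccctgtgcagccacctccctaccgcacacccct
The gap between Col4a4 and Col4a3 held neither a GC box nor CCAAT or its reverse complement ATTGG. In windows of 300 bases around annotated starts, a GC box on either strand stood in 18 of 28 windows of 23 matrix genes and in 35.66% of 32851 windows of all genes, and CCAAT in 10 of the 28 and in 37.41% of all. The 28 windows cover only 23 of the 35 matrix genes and leave out Fbn2, among others. The windows of Col4a1 and Col4a2 overlap each other, and each held 1 CCAAT. The windows of Tnc overlap as well, so some bases were counted more than once. A match describes these letters and does not show a binding site.

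Col4a1 had 33.0, 36.2 and 42.4 CPM in the SHAM libraries and 48.4, 56.6 and 56.8 CPM in the MOG libraries. It had 32.7, 38.3 and 36.1 CPM in GB20 and 42.4, 40.6 and 41.9 CPM in GV16. Every MOG library thus lay above the other 9 libraries, and every GV16 library lay above every GB20 library. Col4a1 rose 1.45-fold in MOG against SHAM (log2 fold change 0.53 ± 0.09 SE, edgeR adjusted p = 0.0028) and was lower by a factor of 1.51 in GB20 than in MOG (-0.59 ± 0.09, edgeR adjusted p = 0.00343). In GV16 against MOG its log2 fold change was -0.37 (95% confidence interval -0.56 to -0.18, edgeR adjusted p = 0.187, with a range of 0.017 to 0.813 over the alternatives). It was called there with no filter, by edgeR or DESeq2 on the 6 libraries of the comparison, and with the replicate block. The difference between GB20 and GV16 itself was -0.22 (interval -0.42 to -0.03) and did not pass the adjustment (edgeR adjusted p = 1.0). GB20 and SHAM differed by -0.06, with an interval from -0.26 to 0.13. Both calls of Col4a1 held in each of the 12 fits that left out 1 library, and neither was made by limma on log2 FPKM values, where the log2 fold changes were 0.46 and -0.51 with a pseudocount of 1 and the adjusted p was 0.0665 and 0.101.

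Col4a2 was called in GB20 against MOG and not in MOG against SHAM. Its SHAM libraries had 28.6, 33.5 and 35.6 CPM and its MOG libraries 32.3, 39.7 and 39.9 CPM, which overlapped. The GB20 libraries had 23.5, 28.5 and 24.5 CPM, all below the SHAM and MOG libraries, and the GV16 libraries had 27.2, 27.4 and 33.6 CPM. The separation from SHAM was a near tie, with 28.46 CPM in GB20 replicate 2 and 28.64 CPM in SHAM replicate 1. These values came from 468 and 473 counts, so their order depends on how the libraries are scaled. Against SHAM the log2 fold change in MOG was 0.19 ± 0.11 SE (edgeR adjusted p = 0.473). Against MOG, Col4a2 was lower by a factor of 1.46 in GB20 (-0.55 ± 0.11 SE, edgeR adjusted p = 0.0292), and in GV16 the log2 fold change was -0.34 (edgeR adjusted p = 0.59). The call in GB20 was lost without MOG replicate 2 (edgeR adjusted p = 0.197), MOG replicate 3 (0.213), GB20 replicate 1 (0.229) or GB20 replicate 3 (0.162), with log2 fold changes of -0.49 to -0.64 over the fits that left out 1 library, and adjusted p ranged from 4.46e-05 to 0.436 over all alternatives. Against SHAM, GB20 had a log2 fold change of -0.36 for Col4a2 (edgeR adjusted p = 0.213).

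The ratio of Col4a1 to Col4a2 was then taken within each library from the FPKM values, a comparison chosen after the values were seen. It was 1.02, 0.958 and 1.06 in SHAM and 1.33, 1.26 and 1.26 in MOG. It was 1.23, 1.19 and 1.31 in GB20 and 1.38, 1.31 and 1.11 in GV16. All 9 libraries of immunized mice, needled or not, had a higher ratio than all 3 SHAM libraries. The means were 1.01 ± 0.0499 (SD, n = 3) in SHAM and 1.29 ± 0.0370 (SD, n = 3) in MOG, with a two-sided exact permutation p of 0.1, which is the smallest that 3 libraries against 3 allow. The ratio in GB20 was 1.24 ± 0.0582 (SD, n = 3), and GB20 against MOG gave an exact permutation p of 0.4. A ratio does not show which of the transcripts differed.

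**Figure D3:**
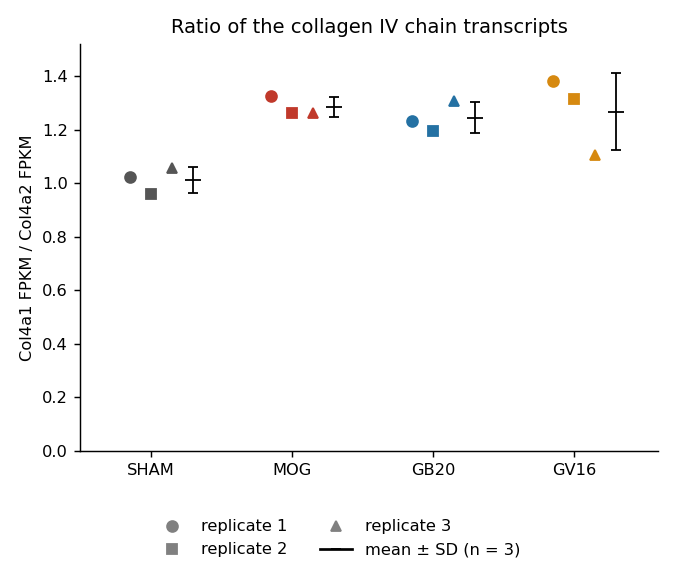
Ratio of Col4a1 FPKM to Col4a2 FPKM in each of the 12 libraries by group, with the mean and SD of 3 libraries in black. The SHAM libraries lie between 0.958 and 1.06 and the 9 libraries of immunized mice between 1.11 and 1.38.

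Several marker lists were set beside the type IV collagen genes, and their part in these differences was not tested. Endothelial markers summed to 480 to 514 CPM in SHAM, 485 to 528 CPM in MOG, 486 to 521 CPM in GB20 and 458 to 520.2 CPM in GV16. Of the 16 endothelial genes 0 were called in MOG against SHAM by edgeR or by DESeq2, with 1 at an unadjusted p under 0.05. Against MOG, 0 were called in GB20 and in GV16, with 2 and 4 at an unadjusted p under 0.05 (8.0% and 5.3% of all genes). Cldn5 had 11.8 to 13.0 CPM in MOG, above all GB20 (8.50 to 11.0 CPM) and GV16 libraries (7.78 to 11.2 CPM). Pecam1 had 9.19 to 13.6 CPM in MOG, above GB20 (7.90 to 8.89 CPM) and overlapping GV16. Cdh5 in MOG overlapped both. Against SHAM the list median was -0.23 in GB20 and -0.21 in GV16. There 0 of the 16 were called by edgeR, with 4 and 5 at an unadjusted p under 0.05 (9.06% and 10.9% of all genes). Pericyte and smooth muscle markers summed to 911 to 1044 CPM in SHAM, 815 to 874 CPM in MOG, 893 to 947 CPM in GB20 and 866 to 922 CPM in GV16, with 0 of 12 called in MOG by either tool and 2 at an unadjusted p under 0.05. The pericyte genes Pdgfrb (12.9 to 14.0 CPM in SHAM, 13.6 to 16.0 CPM in MOG) and Rgs5 (54.7 to 55.6 and 54.3 to 63.1 CPM) overlapped between these groups. They are a small part of the sums, so a lower sum does not show fewer pericyte transcripts. Of these vascular lists, the endothelial sums overlapped among all groups, and the pericyte sums of MOG lay below those of SHAM and GB20 and overlapped those of GV16. Cdh5, Cldn5 and Pecam1 are likewise a small part of the endothelial sums, so that overlap does not show unchanged endothelial transcripts. Markers of the pigment epithelium and melanocytes summed to 92.9 to 107 CPM in SHAM and 118 to 139 CPM in MOG, and to 128 to 141 CPM in GB20 and 99.9 to 146 CPM in GV16. Among glial markers, Gfap, the intermediate filament of reactive glia, rose 2.37-fold in MOG, and in GB20 it was 2.22-fold higher than in SHAM (edgeR adjusted p = 0.0134). In GV16 against SHAM, 0 of the 8 astrocyte markers, Gfap among them, were called by edgeR and 1 by DESeq2 on 12 libraries. Aqp4, the water channel of Müller cells and astrocytes, rose 1.38-fold in MOG, and the Müller cell marker Crym rose 1.52-fold. Of the 14 Müller cell markers 2 rose and 0 fell in MOG by edgeR, with a median log2 fold change of -0.04. Glul had 2000 to 2163 CPM in SHAM and 1660 to 1888 CPM in MOG, and Rlbp1 361 to 406 CPM and 309 to 360 CPM. Both were lower in every MOG library and not called there by edgeR. Rlbp1 fell in GV16 against SHAM (log2 fold change -0.36, edgeR adjusted p = 0.0261). Aqp4 fell in GB20 (log2 fold change -0.35, edgeR adjusted p = 0.029) and in GV16 (-0.34, edgeR adjusted p = 0.047) against MOG, as did Crym (-0.50 and -0.73, edgeR adjusted p = 0.00407 and 4.0e-05). Car14, a carbonic anhydrase and also a Müller cell marker, rose against MOG in GB20 (0.50, edgeR adjusted p = 0.0158) and in GV16 (0.50, edgeR adjusted p = 0.0202). Microglia and macrophage markers summed to 45.5 to 52.9 CPM in SHAM and 64.7 to 72.7 CPM in MOG, and to 60.5 to 76.1 CPM in GB20 and 66.0 to 73.8 CPM in GV16. The sums of astrocyte markers (721 to 811 CPM), Müller cell markers (4593 to 5174 CPM) and ciliary epithelium markers (413 to 464 CPM) overlapped between SHAM and MOG.

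The other 4 chains of type IV collagen, Col4a3 to Col4a6, are those of specialised basement membranes. None was called in any of the 6 comparisons by edgeR or in its alternatives, and at an unadjusted p under 0.05 only Col4a3 in GB20 against GV16 was found (log2 fold change -0.38, edgeR adjusted p = 1.0). In MOG against SHAM their log2 fold changes ran from -0.09 for Col4a3 to 0.24 for Col4a5. Of the Col4a3 exon bases, 5.65% overlap a gene on the other strand, as do 6.27% of those of Lamc3 and 8.45% of those of Nid2. Whether counting used strand is not given, so reads of such overlaps cannot be assigned with certainty. The multiplexin gene Col18a1 encodes a basement membrane collagen from which endostatin is released. It had 18.2, 23.4 and 22.0 CPM in SHAM, 23.8, 21.5 and 19.9 CPM in MOG, 17.4, 25.5 and 19.0 CPM in GB20 and 24.6, 17.7 and 22.7 CPM in GV16. These values overlapped among all 4 groups. In MOG against SHAM the log2 fold changes were 0.04 for Col18a1 and 0.18 for Col15a1, and neither was called in any comparison.

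**Figure D4:**
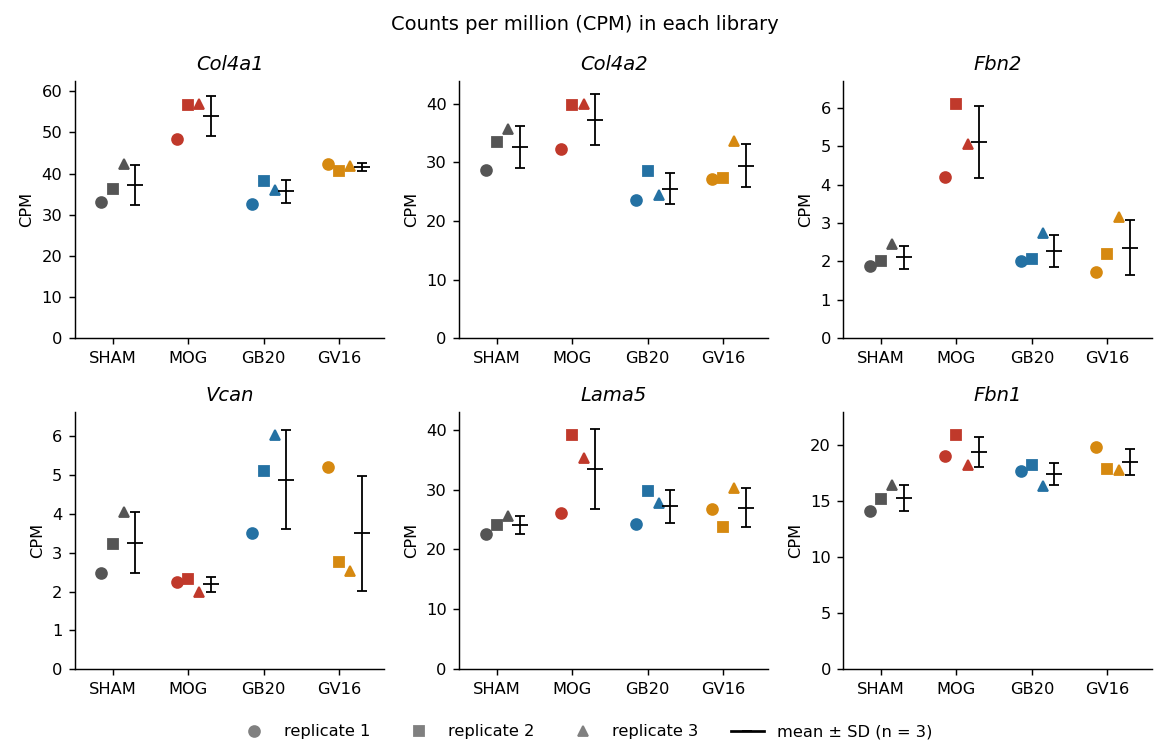
Library-scaled counts (CPM) of Col4a1, Col4a2, Fbn2, Vcan, Lama5 and Fbn1 in each library by group, with a symbol for each replicate number and the mean and SD of 3 libraries in black. Col4a1 and Fbn2 are highest in the 3 MOG libraries, and Vcan is lowest there.

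Among the laminins, Lama5, the alpha 5 chain of mature basement membranes, had 22.6, 24.2 and 25.5 CPM in SHAM and 26.1, 39.1 and 35.3 CPM in MOG. It had 24.2, 29.7 and 27.7 CPM in GB20 and 26.8, 23.8 and 30.3 CPM in GV16. In MOG it was above SHAM in every library, with MOG replicate 1 nearly as low as the highest of them. The log2 fold change in MOG was 0.47 ± 0.13 SE and did not pass the adjustment (edgeR adjusted p = 0.0707, with a range of 0.00064 to 0.455 over the alternatives). It was called without MOG replicate 1 (log2 fold change 0.62), by DESeq2 on 12 libraries, without the filter on low counts and with the replicate number as a block. Lama1, Lama2 and Lama4 had log2 fold changes of 0.23, -0.19 and -0.19 in MOG against SHAM. In GB20 against MOG all 4 alpha chains were at or below -0.13, and none was called.

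Lamb1, the beta 1 chain, had 18.1, 16.9 and 16.8 CPM in SHAM, 13.0, 14.7 and 13.3 CPM in MOG, 13.0, 13.9 and 15 CPM in GB20 and 12.9, 15.3 and 11.7 CPM in GV16. All 9 libraries of immunized mice were thus below the 3 SHAM libraries. The log2 fold changes against SHAM were -0.33 in MOG, -0.31 in GB20 and -0.38 in GV16, and none of them passed the adjustment (edgeR adjusted p = 0.193, 0.37 and 0.159). These comparisons share the SHAM libraries. Lamb1 was called in MOG and in GV16 only where the replicate block and a length correction were used together. Lamb2, the beta 2 chain, had 14.1, 17.8 and 16.5 CPM in SHAM, 14.4, 16.4 and 16.9 CPM in MOG, 14.5, 16.3 and 15.5 CPM in GB20 and 15.7, 14.1 and 19.3 CPM in GV16. Lamc1, the gamma 1 chain, had 28.3, 24.3 and 31.2 CPM in SHAM, 27.1, 25.7 and 29.7 CPM in MOG, 24.8, 28.0 and 24.5 CPM in GB20 and 28.7, 26.4 and 24.6 CPM in GV16. For both Lamb2 and Lamc1 the groups overlapped, and the log2 fold change in MOG against SHAM was -0.02. Lamc3, the gamma 3 chain, had a log2 fold change of 0.51 in MOG (edgeR adjusted p = 0.291) and was called only in the fit without SHAM replicate 3, where it was 0.82.

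None of the linkers and heparan sulfate proteoglycans was called in the 6 comparisons or in their alternatives. Agrn had 111, 124 and 146 CPM in SHAM, 122, 159 and 151 CPM in MOG, 132, 139.6 and 136 CPM in GB20 and 117, 124 and 164 CPM in GV16, with overlap among all groups. Nid1 encodes nidogen 1, which bridges laminin and type IV collagen. It had 2.36, 1.59 and 1.83 CPM in SHAM, 2.24, 1.78 and 2.34 CPM in MOG, 1.44, 1.09 and 1.28 CPM in GB20 and 2.05, 1.80 and 1.73 CPM in GV16. The 3 GB20 libraries were below the other 9, and Nid1 is among the genes described by library because of this pattern, which was seen in the values. The counts behind it were low, at 18 to 28 per GB20 library and 29 to 40 per MOG library. The log2 fold change against MOG was -0.73 ± 0.26 SE (edgeR adjusted p = 0.456). Nid2 had a log2 fold change of -0.19 and Hspg2, which encodes perlecan, of -0.12 in the same comparison.

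Sparc had 139, 138 and 118 CPM in SHAM, 162, 142 and 139.8 CPM in MOG, 147, 144 and 119.7 CPM in GB20 and 125, 121 and 131 CPM in GV16. Its GV16 libraries were below all MOG libraries, by -0.24 ± 0.09 SE on the log2 scale (edgeR adjusted p = 0.739). Against SHAM the log2 fold change in MOG was 0.17 (edgeR adjusted p = 0.409).

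Fbn2 encodes fibrillin 2, a microfibril protein known above all from developing tissue, and showed the largest called change of the 32 genes in each of the comparisons of MOG with SHAM and of GB20 and GV16 with MOG. The gene (ENSMUSG00000024598) was at 1.88, 2.0 and 2.44 CPM in SHAM and at 4.20, 6.08 and 5.04 CPM in MOG. It was at 2.01, 2.07 and 2.74 CPM in GB20 and at 1.74, 2.19 and 3.16 CPM in GV16. The 3 MOG libraries were above the other 9, with 75 to 99 counts each against 28 to 51 in the others. Fbn2 rose 2.41-fold in MOG against SHAM (log2 fold change 1.27 ± 0.23 SE, edgeR adjusted p = 0.00334) and was lower than in MOG by a factor of 2.25 in GB20 (-1.17 ± 0.23, edgeR adjusted p = 0.0233) and of 2.15 in GV16 (-1.11 ± 0.23, edgeR adjusted p = 0.0472). The needled groups differed from each other by -0.06, with an interval from -0.57 to 0.45. From SHAM they differed by 0.10 (interval -0.41 to 0.62) for GB20 and 0.16 (interval -0.36 to 0.68) for GV16.

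The rise of Fbn2 in MOG was called in all 12 fits that left out 1 library. The lower level in GB20 was no longer called without MOG replicate 2 (edgeR adjusted p = 0.185), MOG replicate 3 (0.0924), GB20 replicate 1 (0.165) or GB20 replicate 2 (0.135), in a range of 0.000389 to 0.532 over all alternatives. Leaving out the libraries with the most lens transcripts, SHAM replicate 2 and GB20 replicate 2, gave -1.12 with an adjusted p of 0.0531 by edgeR. The lower level in GV16 was called in only 3 of the 12 fits without 1 library, those without SHAM replicate 2, SHAM replicate 3 or GV16 replicate 3. In the other 9 the edgeR adjusted p ran from 0.0511 without GB20 replicate 3 to 0.376 without MOG replicate 2, and the log2 fold change over all 12 ran from -0.93 to -1.38. On log2 FPKM values with a pseudocount of 1, which shrinks the change of a gene with so low a level, limma gave 0.31 for MOG against SHAM, -0.29 for GB20 and -0.28 for GV16 against MOG, and called none of them.

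Fbn1, the fibrillin of adult microfibrils, had 14.2, 15.2 and 16.5 CPM in SHAM, 19.1, 20.9 and 18.2 CPM in MOG, 17.7, 18.2 and 16.3 CPM in GB20 and 19.9, 17.9 and 17.8 CPM in GV16. The MOG libraries lay above all SHAM libraries with a log2 fold change of 0.34 ± 0.10 SE (edgeR adjusted p = 0.119), and so did the GV16 libraries with 0.28 (edgeR adjusted p = 0.295). Of the Fbn1 exon bases, 20.1% overlap a gene on the other strand, so its counts are less certain. Fn1, the gene of fibronectin, had 39.2, 39.5 and 48.0 CPM in SHAM, 40.0, 48.0 and 45.3 CPM in MOG, 35.4, 37.7 and 42.9 CPM in GB20 and 42.5, 34.3 and 47.0 CPM in GV16. The groups overlapped, and Fn1 was not called in any comparison.

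In the interstitial matrix, Vcan, the gene of the large chondroitin sulfate proteoglycan versican, had its lowest values in MOG, where Fbn2 had its highest. It had 2.48, 3.23 and 4.05 CPM in SHAM, 2.24, 2.33 and 1.98 CPM in MOG, 3.5, 5.11 and 6.03 CPM in GB20 and 5.22, 2.76 and 2.54 CPM in GV16. The 3 MOG libraries were the lowest of the 12, and GV16 replicate 1 stood apart from the other GV16 libraries. The log2 fold change in GB20 against MOG was 1.15 ± 0.27 SE and did not pass the adjustment (edgeR adjusted p = 0.0995, with a range of 0.000267 to 0.794 over the alternatives). It was called by DESeq2 on 12 libraries, by edgeR on the 6 libraries of the comparison, without the filter, with a length correction alone or with the replicate block, and without GV16 replicate 1. Against SHAM, Vcan had a log2 fold change of -0.58 in MOG (edgeR adjusted p = 0.385).

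Tnc, the gene of tenascin C, had 13.9, 14.3 and 16.9 CPM in SHAM, 15.6, 13.8 and 15.6 CPM in MOG, 11.6, 14.3 and 18.6 CPM in GB20 and 17.4, 12.8 and 14.6 CPM in GV16, and the log2 fold change of MOG against SHAM was 0.00 with an interval from -0.30 to 0.30. The fibrillar collagen genes Col1a1 and Col1a2 had log2 fold changes of 0.36 and 0.64 in MOG against SHAM with overlapping groups (edgeR adjusted p = 0.639 and 0.306). Bgn, the small proteoglycan gene biglycan, was lower in all GV16 libraries than in all SHAM libraries, by -1.04 ± 0.33 SE (edgeR adjusted p = 0.18), on 12 to 23 counts per GV16 library. Postn, the gene of periostin, had a log2 fold change of -0.12 in MOG against SHAM. Dcn and Col3a1, which were not tested, had at most 12 and 13 counts in a library. The vitreous collagen gene Col9a1 had 34.7, 48.7 and 44.8 CPM in SHAM, 29.7, 45.1 and 37.5 CPM in MOG, 39.1, 52.0 and 51.7 CPM in GB20 and 39.4, 48.0 and 52.0 CPM in GV16. Its groups overlapped. The log2 fold change in GB20 against MOG was 0.35 (edgeR adjusted p = 0.656), and it was called only with the replicate number as a block. Replicate 1 was the lowest library of each group. Col2a1 had log2 fold changes of -0.14 in MOG against SHAM and 0.14 in GB20 against MOG.

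Other genes of the matrix were counted in 3 further lists. Over all genes, 0.568% rose and 0.771% fell in MOG against SHAM, 0.164% and 0.18% in GB20 against SHAM, and 0.224% and 0.432% in GV16 against SHAM. Of 54 tested matrix components outside the 35, MOG against SHAM had 1 gene that rose, Thbs1, which encodes thrombospondin 1 (2.66 ± 0.151 CPM in SHAM and 5.0 ± 1.46 CPM in MOG, SD, n = 3). It had 2 that fell, Hapln4 of perineuronal nets (13.3 ± 1.51 to 8.40 ± 1.87 CPM) and the Sparc relative Sparcl1 (232 ± 9.47 to 182 ± 22.8 CPM). Hapln4 also fell in GB20 and GV16 against SHAM, by 0.87 and 0.88 on the log2 scale, together with Spock2 in GB20 and Sparcl1 in GV16. Against MOG, 0 of the 54 were called in GB20 and in GV16 by edgeR or DESeq2, with 6 and 3 at an unadjusted p under 0.05, where 8.0% and 5.3% of all genes were. Of 31 matrix receptors, Itgb8, an integrin chain that activates latent TGF-beta, rose 1.51-fold and Cd44, the hyaluronan receptor, rose 1.71-fold in MOG against SHAM. Cd44 also rose in GB20 and Itgb8 in GV16 against SHAM, and 0 of the 31 were called against MOG in GB20 or GV16 by either tool, with 1 in each at an unadjusted p under 0.05. Of 30 genes of collagen processing and crosslinking, 0 were called in the 6 comparisons by edgeR. At an unadjusted p under 0.05 there were between 1 and 5 in each, where 2.93% to 13.0% of all genes were, and DESeq2 on 12 libraries called 1, Bmp1, in MOG against SHAM.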

How the data were processed

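Retinal poly(A) RNA from 12 libraries (4 groups of 3, grouped by the labels) was sequenced with paired ends. The authors aligned reads with HISAT2 2.0.5 to mm10 and FeatureCounts gave the reads of each gene, and the deposited tables hold these raw counts and the authors' FPKM values. The sources used here give neither the annotation release nor the strand setting. Genes were named and placed with GENCODE vM21 on GRCm38. The members and lists were chosen with earlier results of these data known. Counts were filtered with filterByExpr, scaled by TMM and fitted with edgeR 4.0.16 (robust quasi-likelihood fit, 1 mean per group, 12 libraries, 8 residual degrees of freedom), and p-values were adjusted by the Benjamini-Hochberg method over 18299 genes with a threshold of 0.05. Members called in any comparison and the member with the highest mean FPKM of each role are given by library, others by group, except that Vcan, Lamb1, Fbn1 and Nid1 are also given by library, chosen after their values were seen. Called genes of the 3 lists of other matrix genes are named, at most 3 per list and comparison, and the called cell type markers were selected for naming. Some cell type markers that were not called are also given, because their values differed from the sum or from the called markers. Marker lists covered 12 cell types, and the sum of 1 list is not reported here. Alternatives were DESeq2 1.42.0, its size factors, no filter, 6 libraries, a length correction, a replicate block, limma 3.58.1 on log2(FPKM + 1) or log2(FPKM + 0.1), each library left out, and, chosen after seeing the data, the lens-rich libraries left out. The fits were tested on simulated data. Depth was 15860278 to 19194280 counts per library, and floors cover counting error only. The methods name 3 biological replicates without tying a library to its mice. The p-values set a difference against the spread between these libraries, which edgeR shares over the 4 groups and moderates over genes. Same-numbered libraries had correlated deviations above 0.1 in every pair only between GB20 and SHAM (0.113, 0.356 and 0.237), where the block left the members at 0 called and moved all genes called from 63 to 182.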

Additional observations from a re-analysis of the deposited data

How the results depend on the processing

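The cause of the changes below was not tested. With limma on log2(FPKM + 1), with or without a filter, and on log2(FPKM + 0.1), 0 of the 32 genes were called in each comparison, and over all genes 57 to 73 were called in MOG against SHAM (245 by the edgeR fit of the report), 8 to 12 in GB20 against MOG (44) and 6 to 9 in GV16 against MOG (30). With the replicate block together with a length correction, 4 genes were called in MOG against SHAM (adding Lama5 and Lamb1), 5 in GB20 against MOG (adding Col9a1 and Vcan), 3 in GV16 against MOG (adding Col4a1 and Col9a1), 1 in GB20 against SHAM (Col4a2) and 1 in GV16 against SHAM (Lamb1). Calls over all genes also rose in that setting, to 481, 95, 68, 242 and 312 in the same order, from 245, 44, 30, 63 and 120. With the replicate block alone, 3 were called in MOG against SHAM, 4 in GB20 against MOG and 2 in GV16 against MOG, with 404, 73 and 47 over all genes. Outside GB20 against SHAM at least 1 pair of same-numbered libraries in each comparison had correlated deviations of 0.1 or less, so the numbers were not taken to pair the libraries there. In GV16 against MOG, 2 genes (Col4a1 and Fbn2) were called with no filter, by edgeR on 6 libraries and by DESeq2 on 6 libraries. Over all genes these settings called 73, 48 and 57 there. With no filter, 1 gene (Col4a2) was called in GB20 against SHAM, with 282 over all genes. Without 1 library, the number called ran from 2 to 3 in MOG against SHAM, from 1 to 4 in GB20 against MOG and from 0 to 1 in GV16 against MOG. Over all genes it ran from 91 to 427, from 13 to 83 and from 10 to 38 in the same order. Without the lens-rich libraries, 2 genes were called in MOG against SHAM, 2 in GB20 against MOG and 1 in GV16 against MOG, with 231, 50 and 44 over all genes. GB20 against GV16 had 0 called in every setting run. Among the 15 pairs of gene and comparison called in any fit, 0 changed sign under an alternative. Between 28 and 99 counts per library lie behind Fbn2, which limits the precision of its fold changes.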

Other observations

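Replicate 1 had the lowest CPM in each of the 4 groups for 5 of the 32 tested genes (Col4a2, Col4a5, Agrn, Fbn2 and Col9a1), where 3.16% of all tested genes had this order. Replicate 3 was the highest in each group for 2 (Col4a4 and Col4a5), where 1.88% of all tested genes had that order. These orders were looked for after the values were seen, and the labels do not say what a replicate number marks.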
